A study of Mus musculus with 13 samples.

Results

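The islet hormones are the 8 genes Ins1, Ins2, Iapp, Gcg, Sst, Ppy, Pyy and Ghrl, taken from the 23366 genes of the expression table by Entrez gene identifier. Their mRNA was measured by RNA sequencing of ribosomal RNA-depleted RNA from the pancreas of 13 female reprogrammable mice, line i4F-B, and all 8 were found in the table. These mice carry a doxycycline-inducible cassette for the 4 Yamanaka factors (Oct4, Sox2, Klf4 and c-Myc, together OSKM), which is ubiquitous in the line and inserted in the Pparg gene. The same cassette is therefore in every group, controls included. Young mice (13 weeks, n = 4) and old mice (55 weeks, n = 5) received no doxycycline. Old-OSKM mice (58 weeks, n = 4) received doxycycline in sucrose-containing drinking water for 7 days and then recovered for 2 weeks, so OSKM, doxycycline, sucrose and the 3 weeks of extra age cannot be told apart in any comparison with this group. In the study's own account the cassette is not switched on evenly in all cells. Shortly after an injection of doxycycline in young mice, its staining found SOX2 broadly in acinar cells but not in most endocrine cells. The labels name the pancreas but not the region of the gland that was sampled.

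The endocrine pancreas lies in small islets scattered through a gland that is otherwise mostly acinar tissue, which makes digestive enzymes. Beta cells make insulin, which lowers blood glucose, from a pair of genes in the mouse, Ins1 and Ins2, and co-secrete amylin, the product of Iapp. Alpha cells make glucagon (Gcg), which raises blood glucose, delta cells make somatostatin (Sst), which restrains the release of both, and PP cells make pancreatic polypeptide (Ppy). Peptide YY (Pyy), a gut hormone related to pancreatic polypeptide, is also made in some islet cells, and ghrelin (Ghrl), the stomach's appetite hormone, marks a cell type that is frequent in the fetal islet and rare in the adult. Because whole tissue was sequenced, fewer islet cells in a piece of tissue and less hormone mRNA per cell cannot be told apart in any of the values below.

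The members lie on 6 mouse chromosomes (GRCm38). Ins1 spans chromosome 19, 52264297 to 52265015, and Ins2 spans chromosome 7, 142678656 to 142679726. Iapp lies on chromosome 6 at 142298425 to 142303820 and Ghrl on the same chromosome at 113716119 to 113719911. Gcg lies on chromosome 2 at 62474530 to 62483653 and Sst on chromosome 16 at 23889573 to 23891342. Ppy (102099931 to 102101319) and Pyy (102106676 to 102107832) are neighbours on chromosome 11, separated by 5356 bp.

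The insulin genes are near copies of each other, which matters for how 50-nt reads are divided between them, so the start of both coding sequences is shown. Over the first 150 coding bases of the annotated transcripts, 14 bases differed, an identity of 90.7%. Each stretch lies within 1 exon, at chr19:52264624-52264773 on the plus strand for Ins1 and at chr7:142679384-142679533 on the minus strand for Ins2. They are written 5′ to 3′ with the differing bases in capitals:
Ins1: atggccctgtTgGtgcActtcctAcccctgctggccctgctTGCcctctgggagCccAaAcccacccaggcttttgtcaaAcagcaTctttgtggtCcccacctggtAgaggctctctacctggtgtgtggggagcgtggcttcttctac
Ins2: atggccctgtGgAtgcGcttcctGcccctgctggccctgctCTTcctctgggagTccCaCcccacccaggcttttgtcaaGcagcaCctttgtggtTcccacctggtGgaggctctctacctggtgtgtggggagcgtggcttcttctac
Of the 278 windows of 50 bases in the Ins1 coding sequence, 7 (2.52%) were also found in that of Ins2, and the longest shared run was 56 bases. A read that fell wholly in such a window could not by itself be assigned to 1 of the genes, although its mate in the pair might be. Mates and untranslated sequence were not compared, so the uncertainty in the split between Ins1 and Ins2 was not measured.

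The promoters are shown for a beta cell, an alpha cell and a delta cell hormone, because the text below turns on how far these hormones moved together between mice. RefSeq promoter windows (GRCm38.p6) were available for 7 of the 8 members, Ins2 being the exception, and the 250 bases before each start were searched on both strands for 4 motifs. These were the insulin E box GCCATCTG, the cyclic AMP response element TGACGTCA, the TATA box TATAAA and the homeodomain core TAAT. Matches are in capitals in the stretches below, which cover chr19:52264047-52264296 (plus strand), chr2:62483654-62483903 (minus strand) and, for Sst, 30 bases around the match at chr16:23890874-23890903 (minus strand):
Ins1 promoter: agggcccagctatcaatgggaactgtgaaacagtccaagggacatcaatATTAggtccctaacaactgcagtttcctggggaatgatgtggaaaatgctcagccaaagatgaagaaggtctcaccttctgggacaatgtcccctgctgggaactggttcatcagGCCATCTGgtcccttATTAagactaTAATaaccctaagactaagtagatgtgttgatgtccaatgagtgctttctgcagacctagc
Gcg promoter: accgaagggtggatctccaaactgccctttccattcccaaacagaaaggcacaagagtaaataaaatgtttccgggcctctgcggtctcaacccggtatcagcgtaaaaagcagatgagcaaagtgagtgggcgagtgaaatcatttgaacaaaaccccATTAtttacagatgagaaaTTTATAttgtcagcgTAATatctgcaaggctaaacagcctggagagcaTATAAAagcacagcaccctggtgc
Sst promoter, part: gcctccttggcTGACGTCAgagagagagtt
The E box was found 86 to 79 bases before the RefSeq start of Ins1 and in 1.11% of the 32851 promoter windows of the genome. The response element was found 48 to 41 bases before the Sst start used here and in 1.55% of all windows. Both starts depend on the annotation. The RefSeq Ins1 gene spans 719 bp, whereas the Ins1 transcript compared above has 1062 nt, and the Sst stretch lies inside the Sst gene span given above. Distances to other starts were not measured, and bases after these starts were not searched, so a motif not found may lie there. TATAAA was found in the Gcg and Ppy windows and in 12.4% of all windows. TAAT, present in the Ins1, Iapp, Gcg and Sst windows, was found in 54.9% of all windows. These matches describe the sequence and were not tested for binding.

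Hormone levels were given as log2 RPKM, the log2 of read density scaled to transcript length and library total, as deposited after quantile normalization. Levels per kilobase can be compared between genes. Averaged over the 13 mice, the order was Ins2 at 6.87, Ins1 at 5.18, Iapp at 4.04, Gcg at 4.02, Sst at 2.22, Pyy at 1.11, Ppy at 0.90 and Ghrl at -2.18. Iapp and Gcg did not differ beyond their spread (SD 0.81 and 0.74), and neither did Pyy and Ppy (SD 0.79 and 1.14). Ins2 ranked between 25 and 70 among all genes in each mouse, whereas Ghrl never ranked above 10901.

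The values of the beta cell hormones varied widely within groups. Ins2, the more abundant insulin mRNA, was at 6.57, 6.49, 7.49 and 6.92 in young 1 to 4, at 6.64, 6.92, 7.93, 6.73 and 7.49 in old 1 to 5, and at 5.50, 6.57, 6.02 and 8.05 in old-OSKM 1 to 4. The old-OSKM group thus held both the lowest and the highest mouse of the study and overlapped both other groups. The group means were 6.87 ± 0.45 (SD, n = 4) in young, 7.14 ± 0.55 (n = 5) in old and 6.54 ± 1.10 (n = 4) in old-OSKM pancreas. Between old-OSKM 4 and old-OSKM 1 the difference was 5.86-fold on the RPKM scale.

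Ins1 was at 4.91, 4.71, 5.77 and 5.08 in young mice, at 4.92, 5.12, 6.08, 5.32 and 5.73 in old mice and at 3.71, 4.87, 4.45 and 6.73 in old-OSKM mice. Iapp, whose product amylin shares the beta cell granule with insulin, was at 3.42, 3.33, 4.83 and 4.13 in young, at 3.75, 4.20, 4.77, 4.23 and 4.64 in old, and at 2.64, 3.72, 3.18 and 5.62 in old-OSKM mice. Both followed the order of Ins2 at the extremes, with old-OSKM 1 lowest and old-OSKM 4 highest of all 13 mice. The old-OSKM SD was 1.29 for Ins1 and 1.30 for Iapp, against 0.40 to 0.70 for these genes in the other groups.

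**Figure D1:**
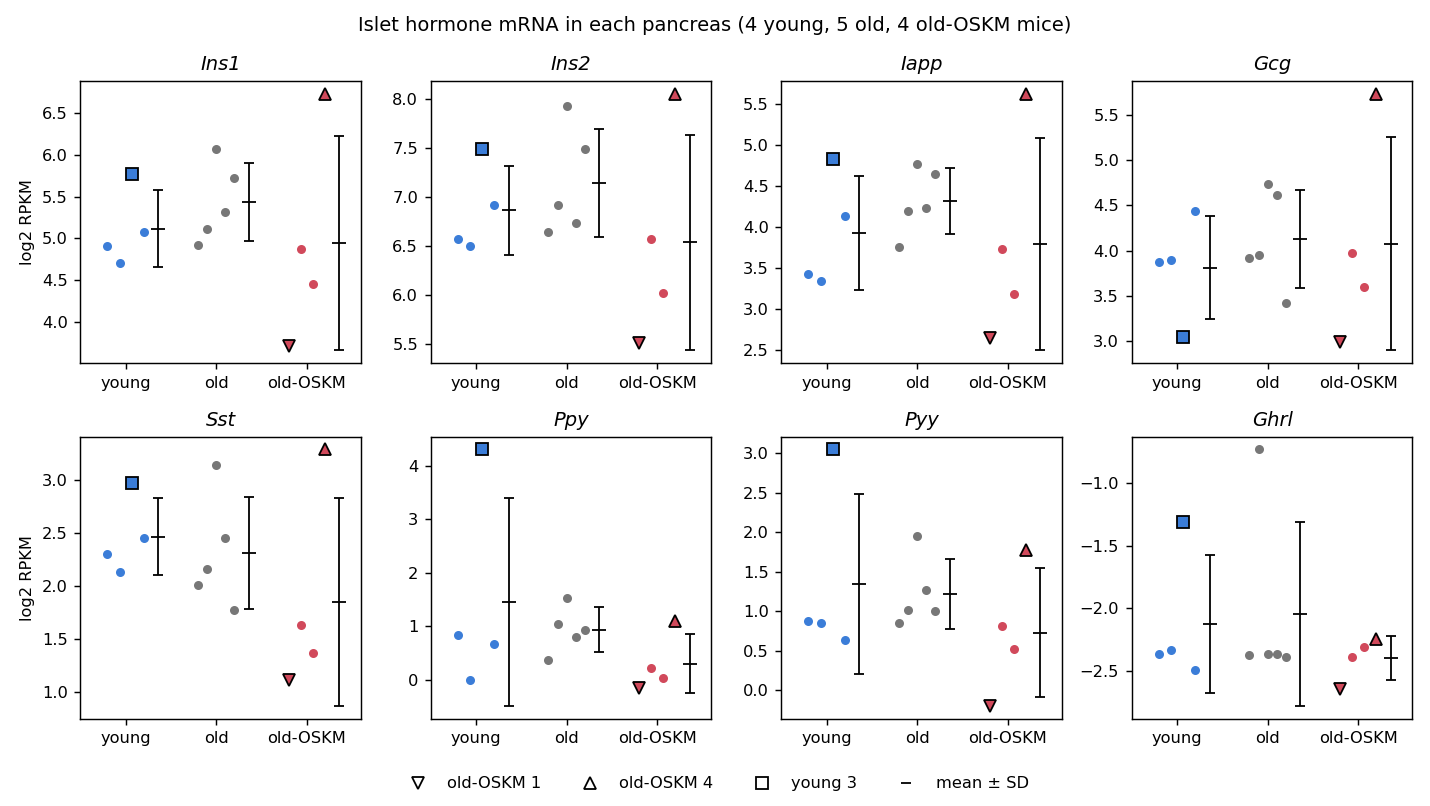
Log2 RPKM of each islet hormone (vertical axes, scaled per gene) in 4 young, 5 old and 4 old-OSKM mice, 1 point per mouse, with the mean ± SD of each group beside it. Old-OSKM 1 (triangle down) was lowest and old-OSKM 4 (triangle up) highest of its group for every hormone, whereas young 3 (square) was highest of all mice for Ppy (4.31) and second lowest for Gcg (3.05).

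Glucagon mRNA followed another order. Gcg was at 3.87, 3.89, 3.05 and 4.44 in young, at 3.92, 3.95, 4.74, 4.62 and 3.43 in old, and at 2.99, 3.98, 3.60 and 5.73 in old-OSKM mice. Young 3 and old 5, which were among the higher mice of their groups for Ins2, were the lowest of their groups for Gcg. Group means were 3.81 ± 0.57 (SD, n = 4) in young, 4.13 ± 0.54 (n = 5) in old and 4.07 ± 1.17 (n = 4) in old-OSKM pancreas.

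Sst was at 2.31, 2.13, 2.98 and 2.46 in young, at 2.01, 2.16, 3.15, 2.45 and 1.77 in old, and at 1.11, 1.63, 1.37 and 3.29 in old-OSKM mice. The 3 lowest somatostatin values of the study were old-OSKM 1, 3 and 2, and the highest was old-OSKM 4.

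Ppy was at 0.83, 0.00, 4.31 and 0.67 in young, at 0.37, 1.05, 1.54, 0.81 and 0.93 in old, and at -0.15, 0.22, 0.03 and 1.09 in old-OSKM mice. Pyy was at 0.87, 0.85, 3.05 and 0.63 in young, at 0.85, 1.01, 1.96, 1.27 and 1.00 in old, and at -0.20, 0.81, 0.52 and 1.77 in old-OSKM mice. Young 3 stood apart for both of these neighbouring genes, its Ppy being 19.9-fold that of young 2. Ghrl was between -2.65 and -2.25 in 11 of the mice and higher in young 3 (-1.31) and old 2 (-0.73). It ranked between 10901 and 15657 of the 23366 genes, and the number of reads behind such low and near-constant values is unknown.

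Differences between the groups were tested with limma in 1 fit of all 13 mice, the call being a change of more than 1.5-fold at a raw p under 0.01. None of the 8 hormones was called in any comparison, and none had a raw p under 0.05 in any. Over all genes, 0.886% were called between old and young, 0.753% between old-OSKM and old and 0.625% between old-OSKM and young. The mice differed much more for the hormones than for most genes of like level. The residual SD was between 0.67 and 1.14 for the members other than Ghrl and above that of 90.5% to 99.9% of the genes within 1 log2 unit of each member's mean, for which the median SD was 0.10 to 0.16.

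In the comparison of age, old minus young, Ins1, Ins2, Iapp and Gcg were on average higher in old mice, and Sst, Ppy and Pyy lower, all well within error. The log2 difference was 0.32 (SE 0.51) for Ins1, 0.28 (SE 0.47) for Ins2, 0.39 (SE 0.53) for Iapp and 0.32 (SE 0.50) for Gcg. It was -0.16 (SE 0.42) for Sst, -0.51 (SE 0.71) for Ppy, -0.13 (SE 0.51) for Pyy and 0.08 (SE 0.35) for Ghrl. The Ppy and Pyy directions rested on young 3, since without that mouse the differences were 0.44 and 0.43. The Sst difference without it was 0.01.

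In the comparison of reprogramming, old-OSKM minus old, the fitted difference was below 0 for all 8 hormones. Ins2 differed by -0.61 (SE 0.47, 95% confidence interval -1.63 to 0.41, adjusted p = 0.608), Ins1 by -0.49 (SE 0.51), Iapp by -0.53 (SE 0.53), Sst by -0.46 (SE 0.42) and Ppy by -0.64 (SE 0.71). Pyy differed by -0.49 (SE 0.51), Ghrl by -0.35 (SE 0.35) and Gcg by -0.06 (SE 0.50). The median of the 8 differences was -0.49, beside -0.04 for all genes, of which 63.1% were below 0. The Ghrl difference came from old 2, and without that mouse it was -0.03. The intervals are wide enough to hold a fall of more than 1 log2 unit and a rise of up to 0.41 log2 units for Ins2. The result depended on old-OSKM 4. Without this mouse Ins1 (-1.09, limma adjusted p = 0.614) and Sst (-0.94, limma adjusted p = 0.614) were called lower in old-OSKM than in old mice, and the other 6 were not, beside 0.775% of all genes in the same fit. Ins2 (-1.11, SE 0.35) and Iapp (-1.14, SE 0.38) were then as far below old mice as Ins1 without being called. Without old-OSKM 1 in its place, the differences shrank to -0.08 (SE 0.48) for Ins1, -0.26 (SE 0.46) for Ins2, -0.14 (SE 0.53) for Iapp, -0.21 (SE 0.44) for Sst and -0.18 (SE 0.53) for Pyy, and Gcg was on average 0.31 above old mice.

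Between old-OSKM and young mice, the differences were -0.17 (SE 0.53) for Ins1, -0.33 (SE 0.49) for Ins2, -0.14 (SE 0.56) for Iapp and 0.26 (SE 0.53) for Gcg. They were -0.62 (SE 0.44) for Sst, -1.15 (SE 0.75, limma adjusted p = 0.706) for Ppy, -0.62 (SE 0.54) for Pyy and -0.27 (SE 0.37) for Ghrl. Several of these values rested on young 3. Without it the difference was -0.20 (SE 0.34) for Ppy, -0.06 (SE 0.40) for Pyy, -0.12 (SE 0.53) for Ins2, 0.05 (SE 0.58) for Ins1, 0.16 (SE 0.58) for Iapp and 0.01 (SE 0.56) for Gcg, and Ghrl lay within 0.001 of 0. With the 2 runs of sample identifiers as a covariate, Ins1 and Iapp turned to 0.08 and 0.26 and Ppy to -0.58, none of them called. Sst was called lower when old-OSKM 4 was left out (-1.10, SE 0.31, limma adjusted p = 0.566), beside 0.766% of all genes.

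**Figure D2:**
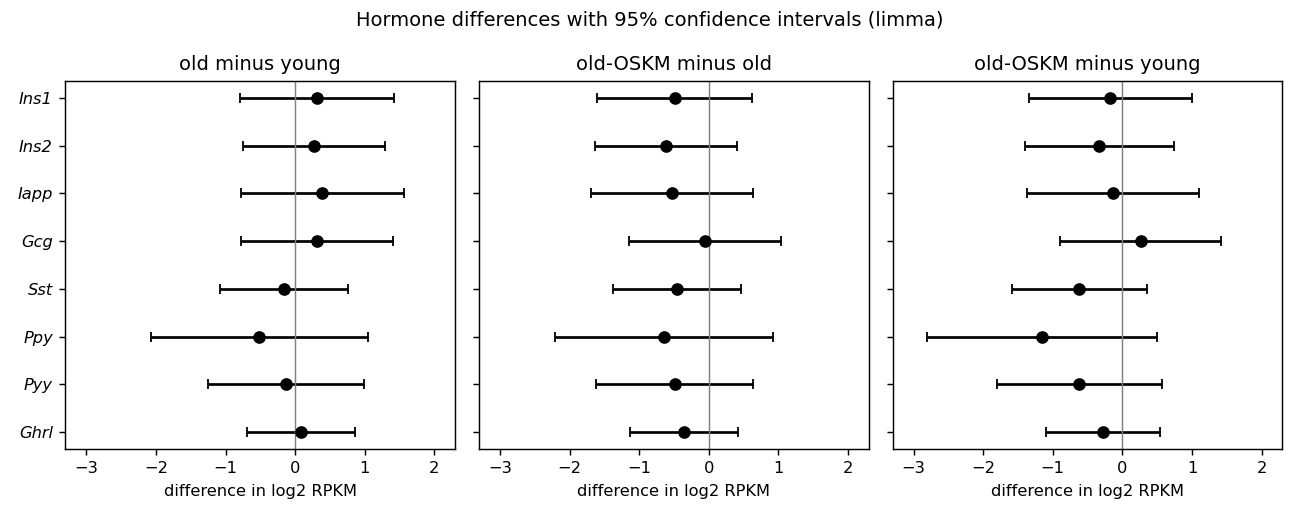
Difference in log2 RPKM (horizontal axis) of each hormone in the 3 comparisons, with its 95% confidence interval from limma. Every interval crosses 0, and in old-OSKM minus old all 8 points lie on the negative side, from -0.64 (Ppy) to -0.06 (Gcg).

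The hormones were next set against each other within a library, a ratio meant to depend less on how much islet tissue a sample held. Whether it does so after quantile normalization was not tested. The beta cell hormones kept nearly the same proportion in every mouse. Ins1 minus Ins2 was -1.69 ± 0.16 (SD, n = 13) and spanned 0.53 log2 units, and Iapp minus Ins2 was -2.83 ± 0.23 and spanned 0.73, whereas Ins2 itself spanned 2.55. Iapp minus Ins2 was between -2.86 and -2.84 in old-OSKM 1 to 3 and at -2.43 in old-OSKM 4. Both ratios were highest in old-OSKM 4 (Ins1 minus Ins2 at -1.32), the mouse with the highest Ins2 level. From old to old-OSKM mice, Ins1 minus Ins2 shifted by 0.12 (exact permutation test, two-sided, p = 0.373) and Iapp minus Ins2 by 0.08 (exact p = 0.611).

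The proportion of glucagon to insulin varied more. Gcg minus Ins2 was at -2.69, -2.60, -4.44 and -2.48 in young, at -2.72, -2.97, -3.20, -2.12 and -4.06 in old, and at -2.51, -2.59, -2.42 and -2.33 in old-OSKM mice. Young 3 and old 5 were low and the old-OSKM mice lay close together. Young 3, young 4 and old 5 are the mice with sample identifiers 641 to 643, and the other 10 mice have identifiers 609 to 621. Of these 3 mice, young 3 and old 5 were the lowest of the study and young 4 was at -2.48. None of the old-OSKM mice had a later identifier, and the part of the identifier run in the low values was not tested. Old-OSKM mice exceeded old mice by 0.55 over all mice (exact p = 0.175) and 0.29 within the mice of identifiers 609 to 621 (exact p = 0.286).

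The ratio of glucagon to somatostatin had the smallest p of the 21 ratio tests. Gcg minus Sst was at 1.57, 1.76, 0.07 and 1.98 in young, at 1.91, 1.79, 1.59, 2.16 and 1.66 in old, and at 1.88, 2.35, 2.23 and 2.44 in old-OSKM mice. Old-OSKM 2, 3 and 4 were above every untreated mouse, and old-OSKM 1 overlapped both groups. The difference was 0.40 from old mice (exact p = 0.0476, adjusted p = 0.48) and 0.88 from young mice (exact p = 0.0571, adjusted p = 0.48), so neither passed the correction over the 21 tests. Without young 3 the difference from young mice was 0.46 (exact p = 0.0857), and within the mice of identifiers 609 to 621 it was 0.36 from old mice (exact p = 0.0857) and 0.56 from young mice. The latter set 4 mice against 2, where p cannot go below 0.0667, and was no test. The smallest p these designs allow is 0.00794 for 4 against 5 mice and 0.0286 for 4 against 4, so that no single one of the 21 tests could pass the correction on its own. Sst minus Ins2 differed between old-OSKM and old mice by 0.15 (exact p = 0.746), Ppy minus Ins2 by -0.03 (exact p = 0.897) and Pyy minus Ppy by 0.15 (exact p = 0.421). Pyy minus Ppy was lowest in young 3 (-1.26), where Ppy exceeded Pyy, and between -0.04 and 0.85 in all other mice.

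**Figure D3:**
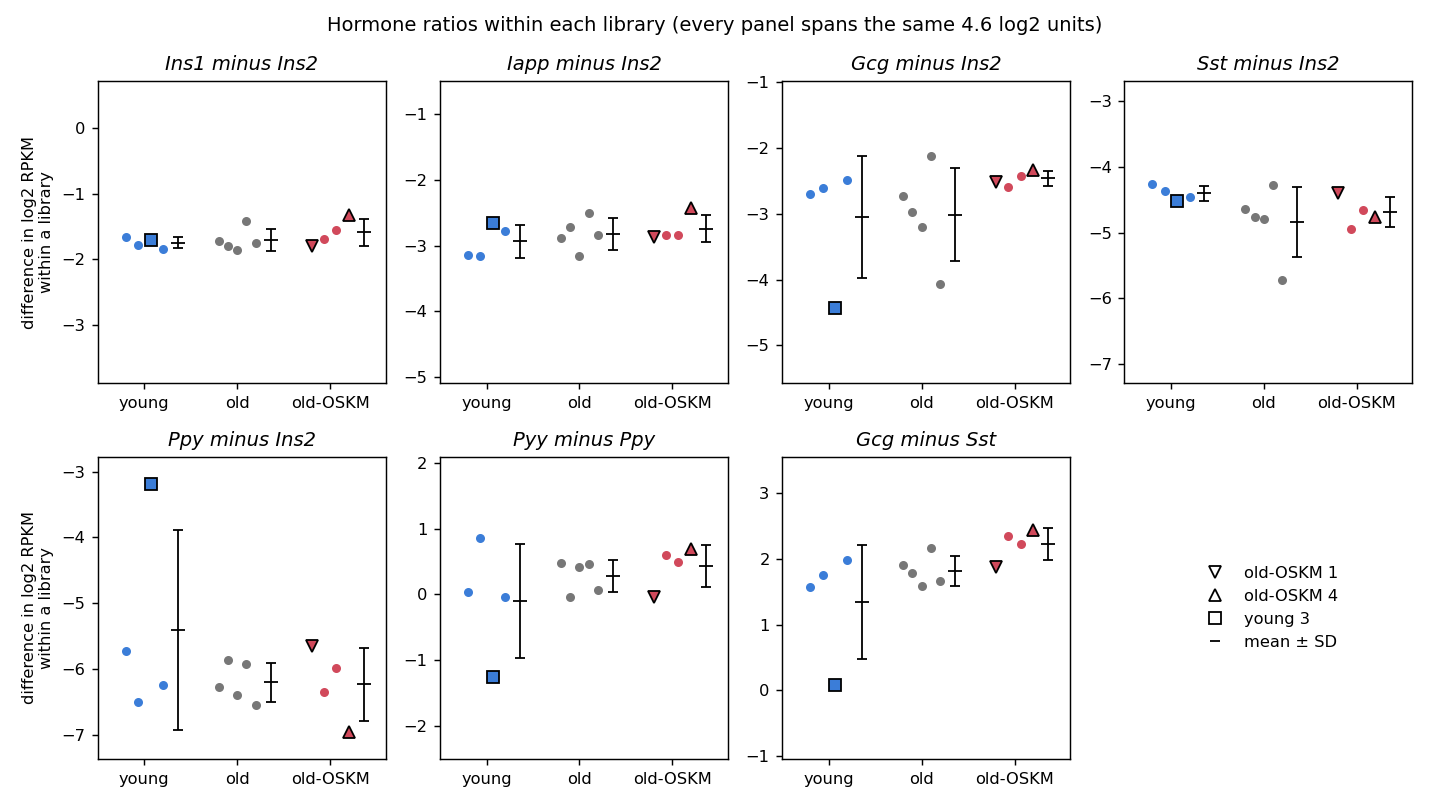
Within-library differences in log2 RPKM between pairs of hormones (vertical axes, each spanning 4.6 log2 units), 1 point per mouse with group mean ± SD. Ins1 and Iapp stayed within 0.53 and 0.73 log2 units of range relative to Ins2, while Gcg and Ppy relative to Ins2 spanned 2.32 and 3.78, with young 3 (square) at the end of both.

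Across the 13 mice the hormones moved together to different degrees. Ins1 and Ins2 were correlated with Pearson r = 0.978 and Spearman rho = 0.979, Ins1 and Iapp with r = 0.977 and rho = 0.989, and Ins2 and Iapp with r = 0.961 and rho = 0.971 (permutation p = 1e-05 for each, the smallest that 100000 resamples give, adjusted over 28 pairs 9.33e-05). These held at r = 0.974, 0.952 and 0.930 without old-OSKM 1 and 4, the mice farthest from the median. Ins2 and Sst had r = 0.851 and rho = 0.792 (permutation p = 0.00028 and 0.00185, adjusted 0.00112 and 0.00432) and r = 0.716 without these mice. Ppy and Pyy had r = 0.908 and rho = 0.912 (permutation p = 2e-05 and 5e-05, adjusted 0.00014 and 0.000233), and r = 0.785 without old-OSKM 1 and young 3. Ppy and Pyy also followed Ins1, with rho = 0.918 and 0.896 (r = 0.562 and 0.776). Without young 3, r with Ins1 was 0.831 for Ppy and 0.920 for Pyy, and r between Ppy and Pyy was 0.831. Of the 28 pairs, 16 passed an adjusted p of 0.05 with Pearson's r.

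Glucagon was less tightly tied to the other abundant hormones, the difference between correlations not being tested. Ins1 and Gcg had r = 0.646 and rho = 0.500 (permutation p = 0.0182 and 0.0843, adjusted 0.0364 and 0.118), and Gcg and Sst r = 0.650 and rho = 0.615 (permutation p = 0.0156 and 0.0296, adjusted 0.0336 and 0.0518), so both passed with Pearson's r alone. Ins2 and Gcg had r = 0.567 and rho = 0.499 (permutation p = 0.0422 and 0.0838, adjusted 0.0656 and 0.118). These relations rested on old-OSKM 1 and 4, since without them r was 0.09 for Ins1, 0.31 for Sst and 0.08 for Ins2. Without young 3, Gcg had r = 0.752 with Ins2, 0.824 with Ins1 and 0.910 with Sst, and Ins2 and Sst had r = 0.840. Within the 10 mice of identifiers 609 to 621, Gcg had r = 0.917 with Ins2, 0.975 with Ins1 and 0.909 with Sst. The remaining 3 mice were too few to give a value of their own. In those 10 mice Ins1 and Ins2 had r = 0.979, Ins2 and Sst r = 0.952, and Ppy and Pyy r = 0.865.

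The hormones were also set against 23 islet genes that encode no hormone, which are granule proteins, beta cell genes and islet transcription factors with a mean log2 RPKM above 0. Their mean followed the insulin genes closely, with r = 0.978 and rho = 0.971 for Ins2 (permutation p = 1e-05 for both, adjusted over the 8 hormones 2.67e-05), against r = 0.482 and rho = 0.467 for Gcg (permutation p = 0.0967 and 0.111, adjusted 0.111 and 0.127). Without old-OSKM 1 and 4 these values of r were 0.966 and -0.01. In the 10 mice of identifiers 609 to 621, r was 0.987 for Ins2 and 0.922 for Gcg. Taken relative to this mean, the range of Ins2 over all mice was 1.27 log2 units in place of 2.55, that of Sst 1.30 in place of 2.18, and that of Gcg 2.68 in place of 2.74. The 23 genes varied unequally, with an SE in old-OSKM minus old of 0.07 for Ptprn2 and 0.50 for Chga. Their mean moved less than Ins2, from 0.54 in old-OSKM 1 to 1.83 in old-OSKM 4. Relative Ins2 was still lowest in old-OSKM 1 (4.96) and highest in old-OSKM 4 (6.23), so it kept part of the spread of Ins2 itself.

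Relative to the same genes, Ins2 was 0.25 lower in old-OSKM than in old mice (-0.25, exact permutation p = 0.437), Gcg was 0.30 higher (exact p = 0.476), Sst differed by -0.10 (exact p = 0.770) and Ppy by -0.28 (exact p = 0.0873). The 4 Ppy values in old-OSKM mice were -0.70, -0.97, -0.84 and -0.73, and those in old mice were -0.83, -0.31, -0.27, -0.56 and -0.66, so that only old 1 lay within the old-OSKM range. None of the 24 such tests passed the correction (the lowest adjusted p was 0.947). The directions depended on the reference. Against 7 granule genes alone, the differences of Ins2, Sst and Ppy were above 0, as given in the closing section.

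**Figure D4:**
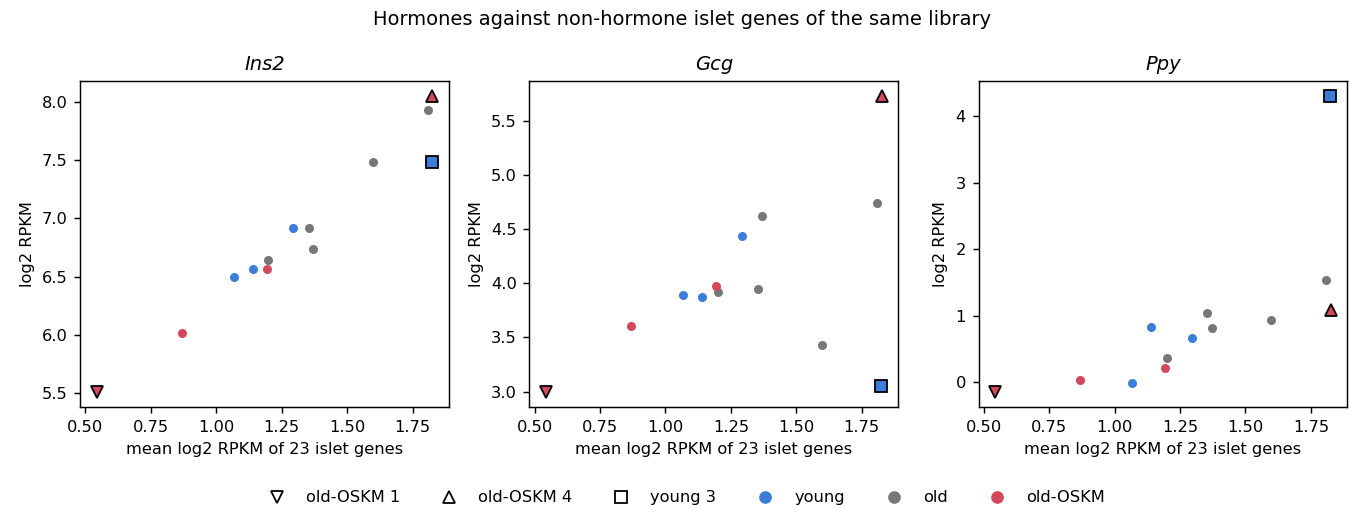
Log2 RPKM of Ins2, Gcg and Ppy (vertical axes) against the mean log2 RPKM of 23 non-hormone islet genes of the same library (horizontal axis), 1 point per mouse. Ins2 rises with the islet genes (r = 0.978), Gcg does so less (r = 0.482) with young 3 at the lower right, and for Ppy young 3 lies at 4.31, above all others.

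The genes whose pattern over the 13 mice was most like that of Ins2, among 8403 genes with a mean log2 RPKM above 0, were Chga (r = 0.978), which encodes the granule protein chromogranin A, Scg3 (0.966), Cplx2 (0.964), Pcsk2 (0.964), Resp18 (0.961), Chgb (0.958), Peg3 (0.958) and Slc30a8 (0.956). Pcsk2 encodes a convertase that processes prohormones and Slc30a8 the zinc transporter of the insulin granule. Their rho with Ins2 lay between 0.916 and 0.971. In all, 15 genes had r above 0.9 with Ins2 and 0 had it with Gcg. The genes most like Gcg were Rnf216 (0.899), Tshz2 (0.899), Zfp839 (0.890), Brpf3 (0.887), Rxrb (0.876), Atg2b (0.872), Ttc19 (0.868) and Paxip1 (0.866), with rho between 0.702 and 0.857, none of which is on the islet lists used here. This search was made over all 13 mice only. The r of Gcg with the mean of the islet genes depended on the mice included. It was 0.482 over all mice, 0.758 without young 3 and 0.922 in the 10 mice of the earlier identifiers. Without old-OSKM 1 and 4 it was -0.01. Whether islet genes would be among those most like Gcg in other sets of mice was not tested.

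Other islet genes were described by lists. Their counts stand beside those over all genes, of which 54.4% were above 0 in old minus young and 63.1% below 0 in old-OSKM minus old. Of 16 islet granule genes, 14 were above 0 in old minus young and all 16 were below 0 in old-OSKM minus old, with a median of 0.37 and of -0.58, and none was called in either comparison. Between old-OSKM and old mice, Ptprn2, a membrane protein of the secretory granule, differed by -0.20 (SE 0.07, limma adjusted p = 0.547) and Chga by -0.55 (SE 0.50). In old minus young, Pam, an enzyme that amidates peptide hormones, differed by 0.35 (SE 0.08, limma adjusted p = 0.222) and Vgf, which encodes a granule protein, by 1.08 (SE 0.38). Of 16 beta cell genes, 10 were above 0 in old minus young (median 0.10) and 14 were below 0 in old-OSKM minus old (median -0.30). Ffar1, a fatty acid receptor of beta cells, was called in 2 comparisons, with a difference of 1.06 in old minus young (SE 0.29, adjusted p = 0.469) and of -1.07 in old-OSKM minus old (SE 0.29, adjusted p = 0.547). These comparisons share the old mice. Dlk1 differed by -0.51 (SE 0.19) in old minus young, and in old-OSKM minus old Ero1lb, a disulfide-forming enzyme, differed by 0.01 (SE 0.07).

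Of 21 islet transcription factors, 14 were above 0 in old minus young (median 0.13) and 18 were below 0 in old-OSKM minus old (median -0.20). Insm1, a zinc finger factor of endocrine cells, was the one called, lower by 1.26 on the log2 scale (-1.26, SE 0.38, adjusted p = 0.547). Foxa2 (-0.03, SE 0.10) and Pdx1 (-0.05, SE 0.11), the most abundant of the list, were not called. Pou3f4, a factor of alpha cells, was called lower in old than in young mice (-0.73, SE 0.05, limma adjusted p = 0.000303). It was also called lower in old-OSKM than in young mice (-0.79, SE 0.05, limma adjusted p = 0.000206), and differed by -0.07 (SE 0.05) in old-OSKM minus old. Its mean log2 RPKM was -2.96, a level below that of Ghrl, at which the reads behind the value are unknown. None of 14 genes of alpha, delta and PP cells and none of 21 hormone receptors was called in any comparison. Of the 14, 7 were above 0 in old minus young (median 0.02). In old-OSKM minus old, 8 of the 14 were below 0 (57.1%, median -0.03), beside 63.1% of all genes. Of the 21 receptors, 15 were below 0 in old-OSKM minus old (median -0.04). In old minus young, the amino acid transporter Slc38a5 differed by -0.44 (SE 0.17) and Etv1 by 0.31 (SE 0.15), and Cd24a by -0.07 (SE 0.06) in old-OSKM minus old. Insr, the insulin receptor, differed by -0.05 (SE 0.08) the somatostatin receptor Sstr4 by 0.69 (SE 0.32) and Glp1r, the receptor of the gut hormone made from the Gcg gene, by -0.23 (SE 0.11) between old-OSKM and old mice.

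Markers of other cell types also differed in the mice with the lowest and highest hormone values. The acinar list was nearly constant, its mean log2 RPKM lying between 8.14 and 8.28 in all mice. Quantile normalization gives every mouse the same set of values, so a shift shared by the most abundant genes could be hidden. It does not fix which gene holds which value, and Ins2, ranked between 25 and 70, differed 5.86-fold between mice. The part of the normalization in the constant acinar list was not tested. Old-OSKM 1, lowest of all mice for all 8 hormones, had the highest mean of the adipocyte list (0.76, against -2.54 to -2.31 in old mice), of the T and B cell list (0.39, against -2.17 to -0.95) and of the macrophage list (2.04, against -0.05 to 0.83). Old-OSKM 4, highest of all mice for 5 of the 8, had the highest mean of the fibroblast and stellate list (2.27) and of the endothelial list (1.82). It also had the highest macrophage (1.46) and adipocyte (-0.40) means after old-OSKM 1. Its T and B cell mean (-1.27) lay within the range of old mice. The highest and next highest macrophage and adipocyte means were thus in the mice with the lowest and highest Ins2, and how these lists relate to the hormone values was not tested. Young 3 had the highest adipocyte mean (-1.25) and the lowest macrophage mean (0.31) of the young mice.

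Between old-OSKM and old mice, where 36.9% of all genes were above 0, all 10 macrophage genes were above 0 (median 0.80, C1qc called at 1.02), as were all 11 T and B cell genes (median 0.62, none called) and all 8 adipocyte genes (median 1.36, Plin1 called at 1.53). Of 10 fibroblast and stellate genes, 9 were above 0, and Col1a1 (0.88) and Col1a2 (0.89) were called. All 10 endothelial genes were above 0 (median 0.32, none called), as were 8 of 12 duct genes (median 0.07) and 3 of 8 neuron and Schwann cell genes (median -0.37). Their part in the hormone values was not tested.

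**Figure D5:**
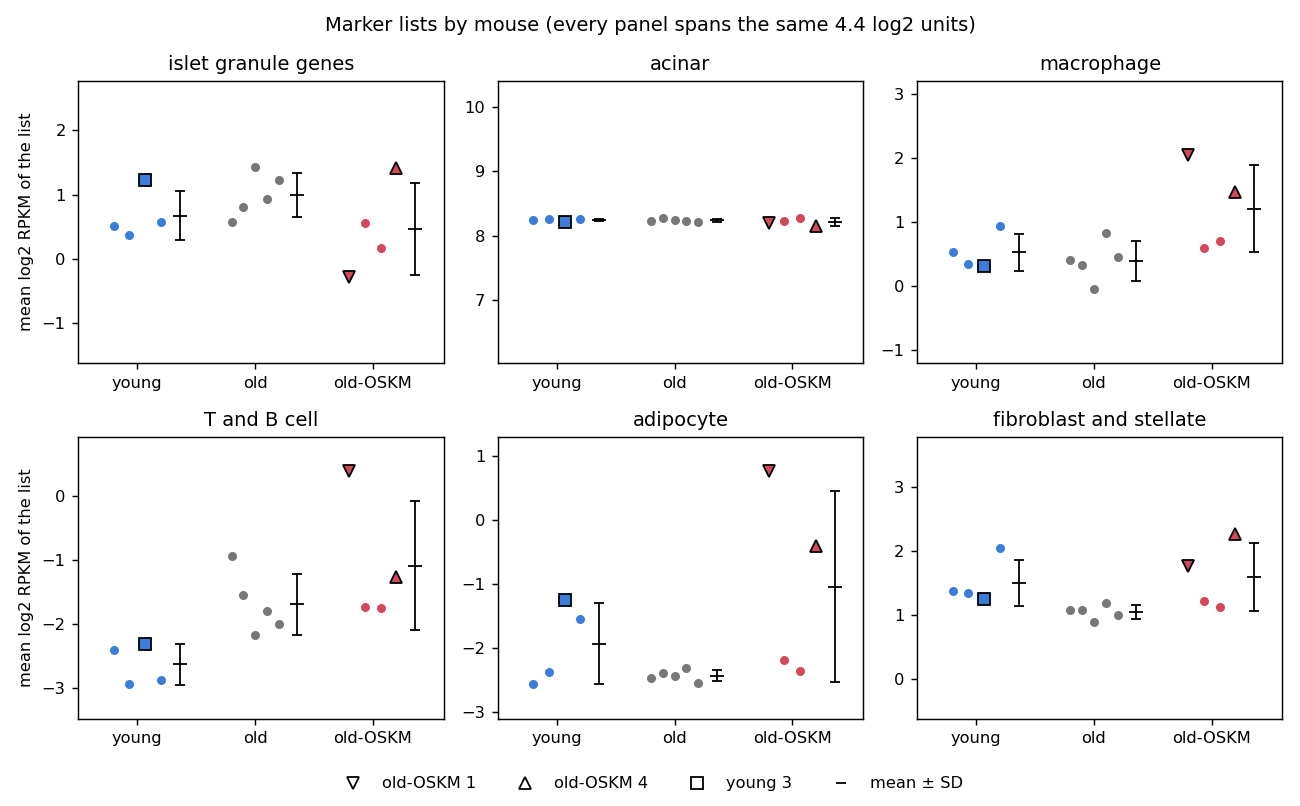
Mean log2 RPKM of 6 marker lists (vertical axes, each spanning 4.4 log2 units), 1 point per mouse with group mean ± SD. The acinar list lies between 8.14 and 8.28 in all mice, and old-OSKM 1 (triangle down) is lowest on the islet granule list (-0.29) and highest on the macrophage (2.04), T and B cell (0.39) and adipocyte (0.76) lists. Old-OSKM 4 (triangle up) is next on the macrophage (1.46) and adipocyte (-0.40) lists.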

How the data were processed

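The 13 libraries were made from pancreas RNA of individual mice after ribosomal RNA depletion and sequenced as paired-end 50-nt reads. The authors aligned the reads with STAR 2.3.0e to mm10, estimated RPKM per isoform with Casper without reads that mapped to 5 or more locations, summed isoforms per Entrez gene, took log2 and quantile normalized the mice. The deposited values are therefore log2 RPKM. Sorted from lowest to highest, the values of any 2 mice lay within 0.0116 of each other, so a later correction by total reads, described in the study's methods, is not in them. No read counts or totals were available, so the depth is unknown and no counting interval is given.

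Gene symbols came from RefSeq (GRCm38.p6) by Entrez identifier, which matched 23273 of 23366 genes and 173 of 174 listed genes. Groups were taken from the condition in the labels, and replicate numbers follow deposit order and pair nothing. All genes were fitted with limma 3.58.1 (R 4.3.3), 3 groups in 1 fit, with Benjamini-Hochberg adjustment over all genes. A call was a fold change over 1.5 with raw p under 0.01. The fit was tested on simulated data. Ratios of hormones, and hormones relative to other islet genes, were compared with two-sided exact permutation tests (Python 3.11.15), and correlations with 100000 resamples. The hormones were all named. For the islet and receptor lists, the 2 genes with the smallest raw p in old minus young or old-OSKM minus old and the 2 with the highest mean level were named. Of the other cell type lists, the genes called in old-OSKM minus old were named, a choice made after their values were seen. The 8 genes most like Ins2 and Gcg were named by Pearson's r. The hormones, lists and tests were chosen with earlier results of these data known. The alternatives tried were other pseudocounts, scaling, filters, variance models and covariates, and each mouse left out.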

Additional observations from a re-analysis of the deposited data

Results flagged for a closer look

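In 5 of 45 groups of values (24 groups of a hormone and 21 of a ratio), 1 mouse lay farther from the rest than Dixon's test allows at the 95% level, and chance flags about 1 in 20 such groups. Young 3 stood apart from the other young mice in 3 of them. Its Pyy was 3.05, against 0.63 to 0.87 in the other 3, its Ghrl was -1.31, against -2.49 to -2.33, and its Gcg minus Ins2 was -4.44, against -2.69 to -2.48. Old 2 stood apart from the other old mice for Ghrl, at -0.73 against -2.39 to -2.36. Old-OSKM 4 stood apart from the other old-OSKM mice for Iapp minus Ins2, at -2.43 against -2.86 to -2.84. All values are on the log2 RPKM scale or are differences on it.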

How the results depend on the processing

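No hormone was called under any of the other scalings, pseudocounts, filters, variance models, covariates and call rules tried. With 1 mouse left out, between 0 and 2 hormones were called in old-OSKM minus old and between 0 and 1 in old-OSKM minus young, the calls coming without old-OSKM 4. Over all genes, 207 were called for age (old minus young), 176 for old-OSKM against old and 146 for old-OSKM against young. It was 19, 1 and 10 at an adjusted p under 0.05, 16, 2 and 8 with log2(RPKM + 1), 116, 77 and 76 with log2(RPKM + 0.1), and 44, 35 and 19 among genes with a mean log2 RPKM above 0, where fewer genes were tested. With 1 mouse left out it ranged from 175 to 280, 94 to 338 and 121 to 253, and in the second it was 94 without old-OSKM 1, 338 without old-OSKM 2 and 284 without old-OSKM 3. In the third it was 253 without old-OSKM 2.

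Directions that changed belonged to values that were not called. With the identifier run as covariate, Ins1 was 0.0799 and Iapp 0.26 in old-OSKM minus young. With 1 mouse left out, the range was -0.61 to 0.31 for Gcg in old-OSKM minus old. In old-OSKM minus young it was -0.29 to 0.62 for Gcg, -0.75 to 0.25 for Iapp, -0.77 to 0.24 for Ins1 and -0.84 to 0.0131 for Ins2. In old minus young it was -0.25 to 0.35 for Ghrl, -0.998 to 0.44 for Ppy, -0.37 to 0.43 for Pyy and -0.37 to 0.01003 for Sst. Among ratios in old-OSKM minus old it was -0.0239 to 0.16 for Iapp to Ins2, -0.23 to 0.21 for Ppy to Ins2 and -0.0723 to 0.29 for Sst to Ins2. Ppy to Ins2 was 0.22 with RPKM + 1, and Sst to Ins2 was -0.0723 within identifiers 609 to 621. Relative to other islet genes it was -0.00933 to 0.48 for Gcg and -0.34 to 0.0244 for Sst. Against 7 granule genes alone, Ins2 was 0.0643, Sst 0.21 and Ppy 0.0304, and against islet transcription factors alone Gcg was -0.10. The cause of these changes was not tested.

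No ratio and no relative level passed the correction under any alternative, but no single test of these designs could, so this is no sign of stability. The number of correlated pairs, 16, was 13 to 21 under the alternatives, including one without young 3 (21) that was chosen after seeing the data. No paired analysis applied, because each library came from a different mouse. The depth behind each value is unknown, which limits Ghrl most, the member with the lowest level.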
